A study of Mus musculus with 2 samples.

Results

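Disease-associated microglia (DAM) are a state of the brain's resident immune cells first described around amyloid plaques, and the genes that mark it are followed here in 2 single-cell libraries. The set was chosen by name and holds 10 genes of the 19537 listed: Apoe, Trem2, Tyrobp, Lpl, Cst7, Axl, Clec7a, Itgax, Spp1 and Cd9. Clec7a was not analysed here, which left 9 genes. Of these, 7 reached the minimum set for a ratio, 20 transcript counts (UMIs) in the sum of both libraries, while Axl and Itgax had fewer.

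Microglia were sorted as CD11b+CD45int cells from the brain 24 h after an intraperitoneal injection of lipopolysaccharide (LPS), a molecule of the bacterial cell wall that sets off inflammation throughout the body. The group labelled KO.LPS (KO) came from PARK7/DJ-1 knock-out mice, a gene-trap line backcrossed to C57BL/6NCrl, and the group labelled WT.LPS (WT) from wild type littermates. All mice were 3 to 4 months old and all had received LPS, so that no untreated level enters the comparison. Each group was 1 Drop-seq library that pooled 2 mice, in which unique molecular identifiers (UMIs) count the transcript molecules of each cell.

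TREM2 is a microglial surface receptor for lipids and lipoproteins, among them particles that carry APOE, and it signals through the adaptor TYROBP (DAP12). In the DAM programme, homeostatic genes fall first while Apoe, Tyrobp, B2m and lysosomal genes rise, and a later step with Lpl, Cst7, Axl, Clec7a, Itgax and Spp1 depends on TREM2. LPS drives microglia into a different, inflammatory state, so a DAM gene measured here is read in that setting.

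The promoters of 4 of these genes are shown because their levels differed most clearly between the libraries, Trem2 and Cd9 towards KO and Apoe and Spp1 towards WT. The sequences are those of RefSeq (GRCm38.p6), from 250 bases before to 50 bases after the transcript start that RefSeq's promoter table uses, read 5′ to 3′ along the gene. For Apoe that start lies inside the gene's annotated span, so its window is not upstream of the whole gene. They lie at chr17:48346151-48346450 (Trem2, plus strand), chr6:125494711-125495010 (Cd9, minus strand), chr7:19699139-19699438 (Apoe, minus strand) and chr5:104434861-104435160 (Spp1, plus strand). Capitals mark letters that match 1 of 5 motifs on either strand.
Trem2: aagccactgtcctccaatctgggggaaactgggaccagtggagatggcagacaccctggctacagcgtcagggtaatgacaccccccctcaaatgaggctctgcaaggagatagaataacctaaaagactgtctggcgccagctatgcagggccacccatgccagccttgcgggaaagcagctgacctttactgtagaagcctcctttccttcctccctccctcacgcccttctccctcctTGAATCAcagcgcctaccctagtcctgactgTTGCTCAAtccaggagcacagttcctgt
Cd9: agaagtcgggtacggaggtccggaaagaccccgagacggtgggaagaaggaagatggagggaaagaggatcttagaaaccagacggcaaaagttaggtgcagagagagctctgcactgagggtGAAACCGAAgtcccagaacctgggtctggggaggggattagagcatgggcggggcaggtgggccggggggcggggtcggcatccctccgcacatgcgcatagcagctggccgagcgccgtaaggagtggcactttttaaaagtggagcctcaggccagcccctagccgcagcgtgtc
Apoe: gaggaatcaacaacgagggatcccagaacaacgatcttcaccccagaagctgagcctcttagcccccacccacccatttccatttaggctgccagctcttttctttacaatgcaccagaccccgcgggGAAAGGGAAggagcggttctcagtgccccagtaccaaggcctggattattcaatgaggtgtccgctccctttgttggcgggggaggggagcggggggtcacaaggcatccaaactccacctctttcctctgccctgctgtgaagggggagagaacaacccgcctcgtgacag
Spp1: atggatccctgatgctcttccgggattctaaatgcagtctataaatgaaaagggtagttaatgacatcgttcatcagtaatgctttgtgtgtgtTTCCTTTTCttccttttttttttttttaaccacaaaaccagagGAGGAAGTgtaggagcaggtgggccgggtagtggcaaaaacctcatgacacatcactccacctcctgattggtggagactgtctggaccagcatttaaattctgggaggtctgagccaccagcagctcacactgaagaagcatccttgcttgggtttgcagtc

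The motifs searched were GAGGAAGT for SPI1 (PU.1), the lineage factor of microglia, TGANTCA for AP-1, TTGCNNAA for C/EBP, CACGTG for the MITF and TFE factors, and GAAANNGAA, the core of the interferon-stimulated response element. Trem2 held an AP-1 match 9 bases before its start and a C/EBP match that begins at base 23 of the transcript. Spp1 held the PU.1 letters 113 bases before its start and the interferon element letters, on the other strand, at 156 bases. Apoe and Cd9 held only the interferon element letters, at 122 and 127 bases before the start. Among all 27025 RefSeq promoters of this length, 3.28% held the PU.1 letters, 7.93% AP-1, 10.8% C/EBP, 7.24% the MITF and TFE letters and 8.57% the interferon element letters. A match describes letters and shows no binding.

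Cells were barcodes with at least 500 UMIs and at least 100 genes. This left 320 cells of KO with 381305 UMIs and 1427 cells of WT with 1989011 UMIs, at a median of 963.5 and 1065 UMIs per cell. The libraries shared 0 cell barcodes. Park7, the targeted gene, had 1 UMI in KO and 323 in WT. All 8 microglia markers, among them Cx3cr1, Tmem119 and P2ry12, were detected in both libraries, and together they made up 26976 counts per 1e6 UMIs (CPM) in KO and 18028 CPM in WT. C1qa of this list was lower in KO, at 2840 against 5298 CPM, and each other marker was higher in KO. The summed choroid plexus list stood at 2119 and 14.6 CPM, the astrocyte list at 448 and 204 CPM, and the endothelial list at 91.8 and 17.1 CPM. Most of the choroid plexus signal in KO, 734 of 808 UMIs, came from 1 cell, so its CPM value does not describe the library as a whole. The neutrophil list stood at 0 UMIs and 64.4 CPM, and the monocyte list at 28.8 and 79.9 CPM. Of the 159 monocyte UMIs of WT, 124 were of Ms4a4c alone, which had 1 UMI in KO. Ccr2 of the same list went the other way, at 21.0 CPM in KO and 7.54 CPM in WT. Xist UMIs without Y-linked UMIs were found in 200 and 565 cells, and the reverse in 12 and 195 cells. Another 9 and 80 cells held both, so these UMIs mark the animal of origin only roughly.

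With 1 library per genotype there is no replicate check. The genotypes were not tested against each other, and genotype cannot be told apart from library. All intervals are exact 95% intervals that cover counting error only. Levels are the UMIs of a gene summed over cells, in CPM, and a ratio is KO over WT.

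The DAM genes did not move together. Trem2 and Cd9 were higher in KO, Apoe and Spp1 were lower, Tyrobp was slightly lower, and the intervals of Lpl and Cst7 included no difference. Of the 7 genes with enough UMIs, 1 was at least 2-fold higher in KO, as were 13.5% of all 9085 genes with as many UMIs. In the other direction, 2 were at least 2-fold lower, as were 15.3% of all genes. The median log2 ratio of the 7 genes was -0.73, that of all genes 0.03 with an SD of 1.17.

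**Figure D1:**
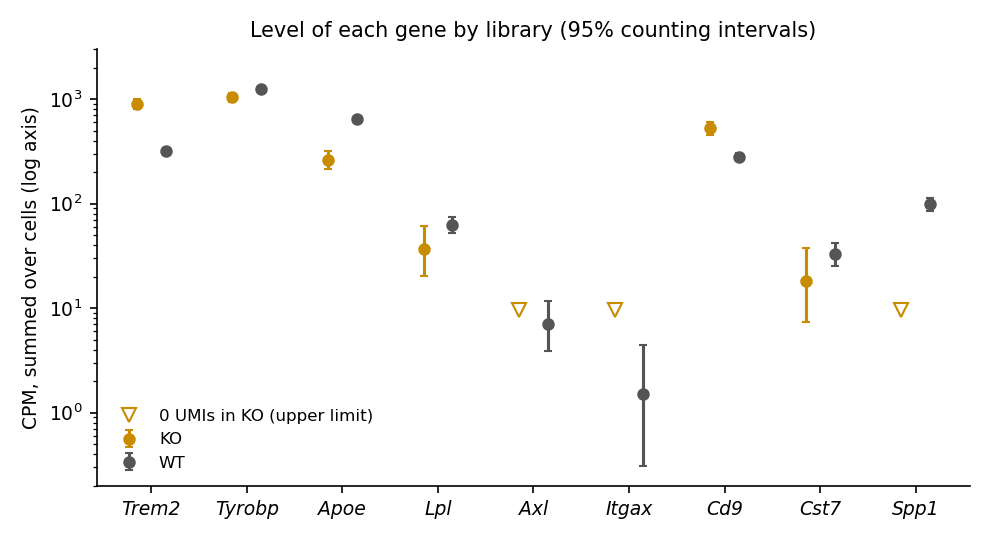
Level of each of the 9 genes in KO (ochre) and WT (grey), in CPM on a log axis, with exact 95% counting intervals. Open triangles give the upper limit of the genes with 0 UMIs in KO. Trem2 and Cd9 stand higher in KO, and Apoe stands lower (262 against 641 CPM).

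The receptor Trem2 had 340 UMIs in KO and 631 in WT. This was 892 CPM (799 to 992) against 317 CPM (293 to 343), a ratio of 2.81 (2.46 to 3.21). The intervals of the libraries did not overlap, and 8576 of the 9085 genes had a lower log2 ratio than the 1.49 of Trem2. Tyrobp, which encodes the adaptor that carries the signal of TREM2 and of other receptors, went the other way by a small amount. Its level was 1041 CPM (941 to 1149) in KO and 1258 CPM (1209 to 1308) in WT, a ratio of 0.828 (0.743 to 0.921). Receptor and adaptor transcripts thus had opposite signs when summed over the same cells.

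Apoe encodes the main lipoprotein of the brain, made chiefly by astrocytes and, in reactive states, by microglia. It had 100 UMIs in KO and 1275 in WT. Its level was 262 CPM (213 to 319) against 641 CPM (606 to 677), which was 2.44-fold higher in WT (1.99 to 3.03). The gap is wider than both intervals, but the Apoe UMIs of KO were concentrated in a few cells, as described below. Lpl, the lipase that releases fatty acids from lipoproteins, had 14 UMIs (36.7 CPM, 20.1 to 61.6) and 125 UMIs (62.8 CPM, 52.3 to 74.9). The ratio of 0.584 had an interval of 0.310 to 1.02, so a difference in Lpl was not detectable at this depth.

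The surface proteins split. Cd9, a tetraspanin that organises membrane complexes, had 201 and 555 UMIs, that is 527 CPM (457 to 605) in KO and 279 CPM (256 to 303) in WT. Its ratio was 1.89 (1.60 to 2.22), the same direction as Trem2 and short of 2-fold. Axl, a receptor tyrosine kinase that recognises dying cells, had 0 UMIs in KO and 14 in WT. Itgax, the integrin subunit CD11c, had 0 and 3 UMIs. Neither of these counts allows a direction, because the WT level lay below the 7.87 CPM that 3 UMIs would make in KO.

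Spp1, which encodes the secreted protein osteopontin, had 0 UMIs in KO and 197 in WT (99.0 CPM, 85.7 to 114). Against a floor of 3 counts in KO, Spp1 was 12.6-fold lower there, and the exact interval of the ratio had a limit of 10.1-fold. This was the widest gap of the set, and 12 of the 9085 genes had a lower log2 ratio when 0.5 was added to each count. Cst7, which encodes cystatin F, an inhibitor of lysosomal cysteine proteases, had 7 and 65 UMIs, or 18.4 CPM (7.38 to 37.8) and 32.7 CPM (25.2 to 41.7). Its ratio of 0.562 (0.217 to 1.22) was open in both directions.

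**Figure D2:**
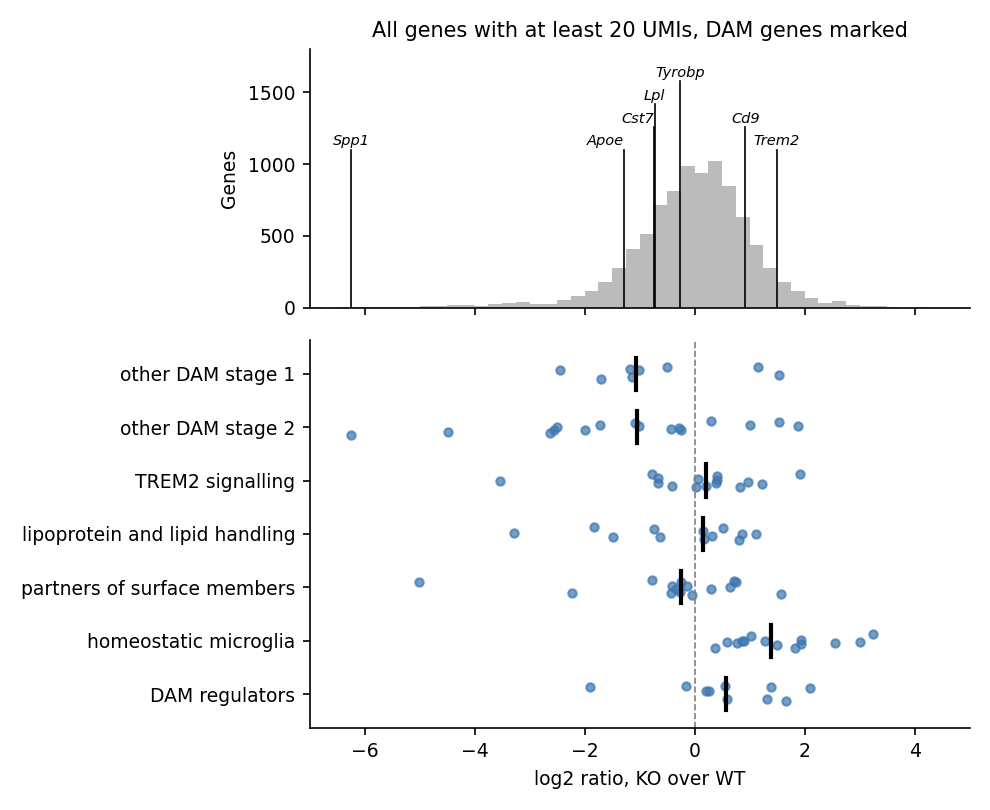
Upper panel: number of genes by log2 ratio of KO over WT for the 9085 genes with at least 20 UMIs, with the 7 DAM genes marked; the value of Spp1 rests on 0 UMIs in KO and the prior count of 0.5. Lower panel: each point is a gene of a related list and each bar the list's median, which is lowest for the other DAM genes (-1.07 and -1.05) and highest for homeostatic genes (1.39).

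The ratios were set against the scaling between libraries. TMM factors shifted every log2 ratio by -0.22 and median-of-ratios factors by -0.21. No gene of the 7 changed sign under either, and relative to the median of all genes the values stay the same (-0.76 for the median of the 7). The scaling did alter the balance of all genes, with 1225 genes at least 2-fold higher and 1387 lower as reported, 820 and 1840 under TMM, and 834 and 1801 under median of ratios.

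The directions were the same in shallow and in deep cells. In the 172 and 657 cells of 500 to 999 UMIs the ratio was 2.95 for Trem2, 1.67 for Cd9 and 0.309 for Apoe. In the 148 and 770 cells of 1000 UMIs or more it was 2.79 for Trem2, 1.99 for Cd9 and 0.460 for Apoe. Spp1 had 45 and 152 UMIs in these classes of WT and 0 in both classes of KO.

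The animals pooled in a library were separated as far as Xist and Y-linked UMIs allow. In cells with Xist UMIs, Trem2 had a ratio of 3.49 (2.89 to 4.21), Cd9 1.80 (1.44 to 2.25) and Apoe 0.390 (0.297 to 0.504). Spp1 was 11.0-fold lower in KO against the floor of 3 counts, with an exact limit of 8.83-fold. Y-linked cells gave wide intervals, since KO had only 12 of them with 14445 UMIs. There, Trem2 had 11 and 132 UMIs, a ratio of 1.77 (0.864 to 3.28), and Cd9 had 9 and 77 UMIs, a ratio of 2.49 (1.10 to 4.97). Apoe had 1 UMI against 130, a ratio of 0.164 (0.00411 to 0.928). Spp1 had 0 UMIs against 23, a ratio with an upper limit of 3.70, so no direction of Spp1 can be given in Y-linked cells. Trem2, Cd9 and Apoe kept their direction in both sets of cells, with the interval of Trem2 reaching below 1 in Y-linked cells.

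**Figure D3:**
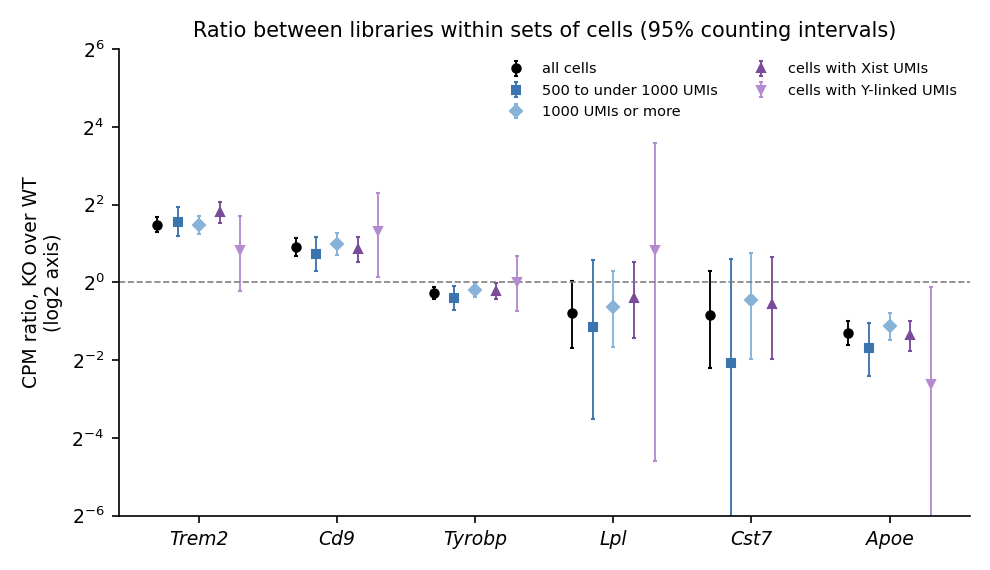
Ratio of KO over WT on a log2 axis for 6 genes in all cells, in 2 classes of UMIs per cell, and in cells with Xist or Y-linked UMIs; bars are exact 95% counting intervals, bars that leave the panel are cut and a ratio of 0 is not drawn. Trem2 and Cd9 stay above 1 and Apoe below 1 in every set, while Tyrobp lies close to 1.

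Shares of cells were compared after thinning every cell to 500 UMIs. They were set beside the share expected if a droplet held only free RNA, taken from barcodes of 100 UMIs or fewer in the same library. Trem2 was found in 102 of 320 cells of KO (31.9%, 26.8 to 37.3), where free RNA alone would give 32.8%. In WT it was found in 203 of 1427 cells (14.2%, 12.5 to 16.1), against 9.50% from free RNA. The Trem2 share of KO is therefore at background, although higher than that of WT. The same held for core microglia genes, as Cx3cr1 and P2ry12 stood at 0.938 and 0.772 times their free CPM level in KO, so this does not show that KO cells lack Trem2. Unthinned, the shares were 56.2% and 30.7%.

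Cd9 stood above free RNA in both libraries. It was found in 23.4% of KO cells (18.9 to 28.5), with 14.9% from free RNA, and in 12.1% of WT cells (10.5 to 13.9), with 5.54%. Tyrobp was also above background, at 37.2% (31.9 to 42.7) against 24.2% in KO and 42.4% (39.8 to 45.0) against 18.6% in WT. Unthinned, Cd9 was found in 40.3% and 27.9% of cells and Tyrobp in 57.8% and 65.3%.

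Apoe was found in 17 of 320 cells of KO (5.31%, 3.12 to 8.37), below the 10.5% that free RNA would give. In WT it was found in 249 of 1427 cells (17.4%, 15.5 to 19.5), above 10.1% from free RNA. The Apoe share thus stood above background in WT and below it in KO, where it is read as background. Spp1 was found in 0 of 320 KO cells. Counted as 3 cells, this allows a share of up to 0.938% of cells with a UMI at this depth (exact upper limit 1.15%), and cells with fewer transcripts than can be seen are not limited by it. Spp1 was found in 49 WT cells (3.43%, 2.55 to 4.51) against 1.26% from free RNA. Lpl lay at or below background in both libraries, at 1.56% against 1.75% in KO and 2.87% against 5.54% in WT. Cst7 was found in 1 cell of KO (0.313%) and in 27 cells of WT (1.89%, 1.25 to 2.74), where free RNA would give 0.502% and 1.10%. Unthinned, Apoe was found in 12.8% and 31.3% of cells, Spp1 in 0 and 6.59%, Lpl in 3.44% and 6.87%, and Cst7 in 1.25% and 4.34%.

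**Figure D4:**
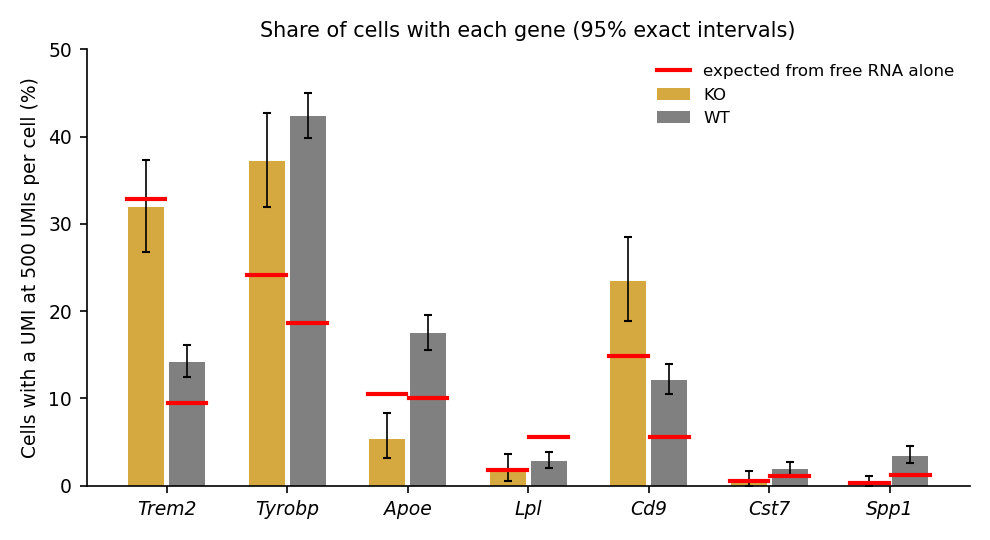
Percent of cells with at least 1 UMI of each gene after thinning to 500 UMIs per cell, in KO (ochre, 320 cells) and WT (grey, 1427 cells), with exact 95% intervals. Red lines give the share expected from free RNA alone; Trem2 and Apoe of KO do not rise above theirs, whereas Tyrobp and Cd9 do in both libraries.

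Levels in cells were also divided by levels in free droplets, on the CPM scale. The median gene was at 0.997 of its free level in KO and 0.984 in WT. Trem2 was 1.12 times its free level in KO (0.926 to 1.36) and 1.59 times in WT (1.23 to 2.09). Tyrobp reached 1.88 times (1.52 to 2.34) and 3.06 times (2.56 to 3.67), and Cd9 1.64 times (1.23 to 2.20) and 2.45 times (1.75 to 3.53). Apoe was 1.18 times its free level in KO (0.823 to 1.73) and 3.02 times in WT (2.36 to 3.92). The WT cells also held Spp1 at 3.91 times its free level (1.95 to 9.18), but Lpl at only 0.551 times (0.378 to 0.822). Within the free droplets themselves, the ratio of KO over WT was 3.98 (2.96 to 5.42) for Trem2, 2.82 (1.85 to 4.38) for Cd9 and 1.04 (0.697 to 1.55) for Apoe. Tyrobp had a ratio of 1.34 (1.03 to 1.75) in free droplets, the other side of 1 from its 0.828 in cells. Lpl had 7 and 36 UMIs there, a ratio of 0.309 (0.116 to 0.704), and Spp1 had 1 and 8 UMIs, a ratio of 0.199 (0.00448 to 1.48). The Trem2 difference between the libraries was thus present outside cells too, and that of Apoe was not seen there. With free RNA taken as 10% of the UMIs in cells and subtracted, the log2 ratio was 1.45 for Trem2, 0.89 for Cd9 and -1.36 for Apoe. The true share of free RNA in cells is not known.

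Among single cells, Apoe and Spp1 were unevenly spread, and Trem2, Tyrobp and Cd9 were more evenly spread. In KO, 41 cells held Apoe, and the 3 leading cells held 24, 10 and 7 UMIs, 41.0% of all its Apoe UMIs. The first of them had 11 UMIs of microglia markers and 0 of the astrocyte and choroid plexus lists. The second had 33 astrocyte UMIs, and the third had 734 choroid plexus UMIs, 646 of them of Ttr. In WT, 447 cells held Apoe, and the 3 leading cells, each with microglia markers and at most 1 astrocyte UMI, held 6.75% of the Apoe UMIs. Without these leading cells the log2 ratio of Apoe was -1.93 in place of -1.28. They were 3 cells of each library, a larger share of the KO cells than of the WT cells.

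The 3 KO cells in which a list of another cell type made up at least 1% of the UMIs held 17.0% of the Apoe UMIs, and the 4 such cells of WT held 2.35%. The same cells held at most 0.588% of the UMIs of Trem2, Tyrobp and Cd9. Without all these cells the log2 ratio was -1.50 for Apoe, 1.50 for Trem2 and 0.93 for Cd9, the same directions as with them. Border macrophages, which sit at the brain's surfaces and also make Apoe, are marked by a list that stood at 62.9 CPM in KO and 46.3 CPM in WT, and 6 of its 7 markers (all but Mrc1) were at 0 UMIs in KO.

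Spp1 came from 94 cells of WT, of which 20 had at least 3 UMIs and the leading one had 16. The 3 leading cells held 17.8% of the Spp1 UMIs. After thinning, the variance of UMIs over the mean was 2.28 for Spp1 in WT, and 4.42 and 3.05 for Apoe in KO and WT. For Trem2 it was 1.27 and 1.05, for Tyrobp 1.12 in both, and for Cd9 1.13 and 1.10. These lay above the value of 1 that counting alone gives, but closer to it than Apoe and Spp1. Trem2 was accordingly spread over 180 cells in KO, of which 38 had at least 3 UMIs, and the leading cell had 8.

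**Figure D5:**
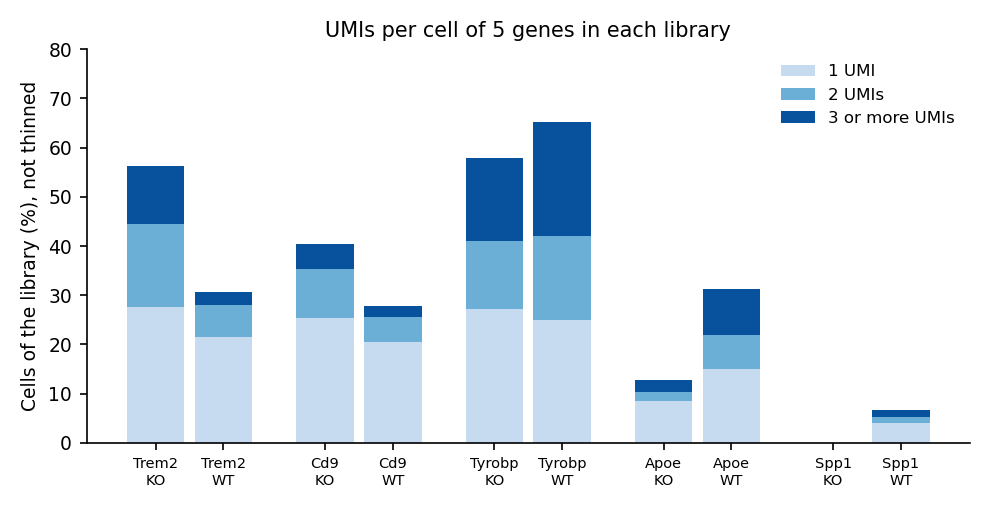
Percent of all cells of each library with 1, 2 or at least 3 UMIs of Trem2, Cd9, Tyrobp, Apoe and Spp1, without thinning. KO has a larger share of cells at every count of Trem2 and Cd9, WT has a larger share with Apoe (31.3% against 12.8%), and Spp1 UMIs were found in WT alone.

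Joint detection of these genes in the same thinned cell was compared with the product of their separate shares. In KO, 5 pairs could be compared, and the cells with both genes were 1.00 to 1.85 times that product, above it in all 5. In WT, 14 pairs ranged from 0.861 to 1.52 times, and 10 were above it. Apoe and Trem2 were found together in 10 KO cells, where 5.42 would be given by their shares, and in 38 WT cells, where 35.4 would be. Apoe and Spp1 met in 13 WT cells against 8.55. None of the 9 genes was found in 33.8% of KO cells and 35.7% of WT cells, and 1 and 9 cells, respectively, held 4 of them.

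Likeness across thinned cells was weak throughout, and these correlations share depth and library. Only values of Spearman's rho of at least 0.2 are given. In KO (320 cells), Tyrobp was most like Cst3 (0.31), Itm2b (0.26) and Actb (0.26), Apoe like Cd63 (0.24) and Ubl5 (0.20), Cd9 like 1110001A16Rik (0.23) and C1qc (0.20), and Trem2 like Ube3a (0.20). In WT (1427 cells), Tyrobp was most like B2m and Cst3 (both 0.25), and no gene reached 0.2 for Apoe, Trem2, Lpl, Spp1 or Cd9.

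Related genes were counted by list, to be read against all 9085 genes, of which 51.3% were higher in KO and 48.7% lower, 13.5% and 15.3% by at least 2-fold. Of 8 further genes of the first DAM step, 6 were lower in KO, 5 of them by at least 2-fold, and 2 were higher by at least 2-fold (1 under either scaling), with a median log2 ratio of -1.07. Fth1, the ferritin heavy chain that stores iron, had the lowest ratio of these (0.184, 0.163 to 0.206). Ctsd, the lysosomal protease cathepsin D, had the highest (2.91, 2.72 to 3.11). Of 16 further genes of the TREM2-dependent step with enough UMIs, 12 were lower, 9 of them at least 2-fold, and 3 of the 4 higher genes were at least 2-fold higher (2 under either scaling), with a median of -1.05.

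Within that second step, Ccl6, a chemokine, had the highest ratio (3.68, 2.65 to 5.08). Lilrb4a, an inhibitory receptor with a near-identical neighbour that could share its reads, had 1 UMI in KO and 597 in WT, a ratio of 0.00874 (0.000221 to 0.0489). Csf1, a microglial growth factor, stood at 21.0 CPM (9.06 to 41.3) and 47.3 CPM (38.2 to 57.8). Lgals3 had 0 and 11 UMIs and Gpnmb 0 in both libraries, so neither reached the floor of 3 counts in KO. Genes of the late step had ratios on both sides of 1.

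Genes around the TREM2 receptor lay on both sides. Of 15 with enough UMIs, 10 were higher and 5 lower in KO, 2 and 1 by at least 2-fold (1 and 1 under TMM), and 7 were higher and 8 lower under either scaling, which shifts all genes alike. The median log2 ratio was 0.20 (-0.02 under TMM and -0.01 under median of ratios), and relative to the median of all genes it was 0.17 in each case. Blnk, an adaptor for the kinase SYK, had the highest ratio (3.77, 3.02 to 4.71), and Inpp5d, the phosphatase SHIP1 that restrains this pathway, had 2.33 (2.04 to 2.64). Syk itself was at 139 and 138 CPM, a ratio of 1.01 (0.735 to 1.35) whose log2 value of 0.02 turned negative under both scalings. Hcst, the alternative adaptor DAP10, had 9 and 78 UMIs (0.602, 0.265 to 1.20). Ms4a6d, of a family linked to soluble TREM2 and with close relatives that could share its reads, had the lowest ratio (0.0845, 0.0545 to 0.125).

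Genes of lipoprotein and lipid handling gave a median of 0.16 over 12 genes (-0.06 under TMM and -0.05 under median of ratios), which relative to the median of all genes was 0.13 in each case. Of these, 7 were higher and 5 lower (5 and 7 under either scaling), 1 and 3 by at least 2-fold (0 and 3 under either scaling), and with Apoc2, at 0 UMIs in KO, set to its bound the latter count was 2. Among those with at least 50 UMIs, Npc1, which exports cholesterol from lysosomes, was the highest (2.16, 1.53 to 3.02), and Plin2, which coats lipid droplets, the lowest (0.261, 0.0938 to 0.585). Lrp1, a receptor for APOE, was at 1.82 (1.50 to 2.20) and Abca1, which loads APOE with lipid, at 1.25 (1.05 to 1.47). Apoc1, a neighbour of Apoe in the genome, had 0 and 3 UMIs.

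Partners of the surface genes were mostly near 1, with 5 of 15 higher and 10 lower and a median of -0.26. Gas6, the ligand of AXL and MERTK, had the highest ratio (2.95, 2.12 to 4.07), and Mertk, the relative of Axl that homeostatic microglia carry, was at 1.55 (1.38 to 1.75). Itgb2, the integrin chain that pairs with Itgax, was at 0.827 (0.647 to 1.05). Cd44, a receptor for osteopontin, had 0 UMIs in KO and 84 in WT, 5.37-fold lower against the floor of 3 counts, with an exact limit of 4.27-fold. Ctsc, a protease that cystatin F restrains, had a ratio of 0.212 (0.174 to 0.257). The osteopontin receptor Cd44 and its ligand Spp1 were thus both at 0 UMIs in KO.

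Homeostatic genes, which fall in DAM, were higher in KO in 14 of 14 cases, 9 of them by at least 2-fold (8 under either scaling), with a median log2 ratio of 1.39; of all genes, 51.3% were higher and 13.5% at least 2-fold higher. P2ry12, a purinergic receptor, had the highest ratio (9.46, 8.67 to 10.3). Trem2 and Cd9 lay on the same side as these genes. Of 10 transcription factors written about for DAM or lysosomal genes, 8 were higher and 2 lower in KO, 4 and 1 by at least 2-fold, with a median of 0.58, and under either scaling 7 were higher. Cebpa had the highest ratio (4.27, 3.01 to 6.03) and Cebpb, a C/EBP factor induced by inflammation, the lowest (0.264, 0.198 to 0.345).

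The median of each list was unchanged with genes at 0 UMIs set to their bound. In the current gene annotation (GENCODE vM39), exons of Apoe, Trem2, Lpl and Cd9 overlap a noncoding gene on the other strand and exons of Spp1 overlap an unclassified gene on the same strand. The gene that overlaps Cd9 was counted as a gene of its own, and the other 4 were not analysed here. The sources do not say if reads were counted by strand, so counts of Apoe, Trem2, Lpl and Cd9 are uncertain to that extent, and strand would not separate Spp1 from its neighbour. Exons of Tyrobp, Cst7, Axl and Itgax overlapped none.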

How the data were processed

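For each library the authors deposited a matrix of raw UMI counts (genes by 9999 barcodes), not normalised and not filtered to cells. The submitters' processing notes name bcl2fastq 2.0, STAR, mm9 and mm10 without saying which build served; the counting program and annotation are not given in the sources used here. Genes listed for 1 library only carry missing values in the other, which were read as 0 (5616 genes in KO, 3036 in WT). The genes and lists were chosen with earlier results of these data known, and the promoter motifs after the ratios had been seen.

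UMIs were summed over cells and divided by all UMIs of the library's cells (CPM). Exact Poisson intervals were computed for levels, conditional binomial intervals for ratios and Clopper-Pearson intervals for shares (Python 3.11.15, numpy 2.4.6, scipy 1.17.1). PCR and capture error are not covered. The log2 ratio used a prior count of 0.5, and bounds a floor of 3 counts. Cells were thinned to 500 UMIs without replacement. Scaling factors came from edgeR 4.0.16 (TMM) and DESeq2 1.42.0 in R 4.3.3; neither was used for a test. The test of the study took cells as replicates and was not run. Barcodes with an unread base made up 35 and 179 of the cells. Doublets were left in, and an alternative removed cells of more than 3 times the median UMIs.

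Named genes were the 9 genes, Park7, the highest and lowest gene of each list with at least 50 UMIs, and 13 partner genes fixed by name; 1 gene that this rule picks is not reported here. Other alternatives changed the threshold for cells or genes, the scaling, the weight of cells, free RNA, cells of other types, the leading cells and the animals. Older symbols were matched through RefSeq (Lilrb4a, Chil3), and Apoc4, Tyro3 and Bhlhe40 were not analysed here. The calculations were tested on simulated data.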

Additional observations from a re-analysis of the deposited data

Results flagged for a closer look

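Tyrobp had a log2 ratio of KO over WT of -0.22 in cells with Xist UMIs and of 0.048 in cells with Y-linked UMIs, so the signs were opposite in the 2 sets of cells. The difference was not tested, and the Y-linked set of KO held 12 cells with 19 Tyrobp UMIs, whose ratio of 1.01 had an interval of 0.601 to 1.60.

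Droplets of 101 to 499 UMIs, which lie below the minimum for cells, also held DAM transcripts. In them Trem2 was 4.36 times as high in KO as in WT (3.36 to 5.63; 98 and 163 UMIs) and Cd9 3.49 times (2.45 to 4.92; 51 and 106 UMIs). The ratios in cells were lower, 2.81 and 1.89. Apoe had a ratio of 0.934 (0.612 to 1.38) in these droplets, against 0.409 in cells, and Tyrobp 1.29 (0.984 to 1.68), against 0.828. Spp1 had 0 and 49 UMIs. These droplets numbered 443 and 4302.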

How the results depend on the processing

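Over the alternatives run, 63 of 75 log2 ratios of single genes lay within the counting interval of the reported value, and 1 had the other sign. That was Tyrobp in cells with Y-linked UMIs. The same cells, with 5 genes left, turned the median of the genes from -0.73 to 0.048. Without the 3 leading cells per gene, 4 genes in place of 2 were at least 2-fold lower in KO. Lpl moved to -1.38, Apoe to -1.93 and Cst7, with 1 UMI left in KO, to -2.90. This alternative left out 3 cells of each library, a larger share of the 320 KO cells than of the 1427 WT cells. Only 4 KO cells held Cst7. The count was 3 with the mean of single-cell CPM (Cst7 at -1.55). It was also 3 without cells of over 3 times the median UMIs (Cst7 at -1.70). In Y-linked cells Trem2 stood at 0.89, Apoe at -2.03 and Cd9 at 1.38. Thinning to 1000 UMIs (148 and 770 cells) widened the difference in shares to 26.6 percentage points for Trem2 and -17.0 for Apoe and brought Tyrobp to -0.80. The cause of these shifts was not tested. The count of genes at least 2-fold higher was 1 in all 13 alternatives, but in Y-linked cells this gene was Cd9 in place of Trem2. Spp1, at 0 against 23 UMIs, had no bound there (-1.14 in place of -6.24). No paired analysis was possible because each genotype had 1 library.

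The main limits are the single library per genotype, the 320 cells of KO and the free RNA. At this depth a gene under 7.87 CPM cannot be placed in KO, which applies to Axl and Itgax. The part of free RNA, of transcripts of other cell types and of the excess of Xist cells in the differences between libraries was not tested beyond the values given.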

Other observations

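Within WT, cells were set apart by Saa3, an acute-phase gene chosen after its values were seen. Spp1 stood at 143 CPM in the 297 cells with at least 3 Saa3 UMIs and at 81.2 CPM in the 844 cells with 0, a ratio of 1.76 (1.28 to 2.43). Cd9 went the other way, at 222 and 318 CPM (0.698, 0.564 to 0.860). Apoe (1.08, 0.949 to 1.23), Trem2 (0.898, 0.743 to 1.08) and Tyrobp (1.05, 0.961 to 1.15) had intervals that included 1. The Saa3 cells were deeper, at a median of 1410 against 969.5 UMIs. The 2 leading Spp1 cells, with 71 and 61 Saa3 UMIs, held 16 and 11 of the 82 Spp1 UMIs of the Saa3 cells. The next, with 8 Spp1 UMIs, had 0 Saa3 UMIs. The Spp1 ratio without these cells was not computed. The intervals cover counting error only, and the cells come from 1 library.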
